A study of Mus musculus with 21 samples.

Results

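The genes described here are those by which forebrain inhibitory neurons are specified and recognised in mouse: the homeobox genes Dlx1, Dlx2, Dlx5 and Dlx6, the LIM homeobox gene Lhx6, the GABA synthesis genes Gad1 and Gad2, and the neuropeptide genes Sst and Npy. They were picked out by symbol, from a list chosen with earlier results of these data known. All 9 were found, once each, among 40770 genes measured in the linc-Brn1b strain and among 42760 genes measured in the Peril strain. In the linc-Brn1b strain, RNA came from the whole telencephalon of embryos (E13.5, E15.5) and the whole brain of pups (P7), taken from homozygous knockouts and wild-type littermates. In the Peril strain, which the sample labels call linc-Sox2, it was sequenced from whole brain at E18.5. Labels list 2 libraries for each genotype, tissue and age, and 3 for the linc-Brn1b knockout at E15.5. The published description gives a smaller number for that last group, so whether its pooled value holds all of the listed libraries is not known. In both strains the lincRNA gene was replaced by a lacZ reporter cassette in hybrid embryonic stem cells of 129S6SvEv and C57BL/6N origin, and the mice were crossed back to C57BL/6J once, so every group carries a mixed background. The deletion is constitutive and was not restricted to any cell type.

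Inhibitory neurons of the cortex are born in the ganglionic eminences of the ventral telencephalon and migrate from there into the cortex. DLX1 and DLX2 act in progenitors and young neurons of all ganglionic eminences, upstream of DLX5 and DLX6, while LHX6 is required for the fate of neurons that leave the medial eminence, many of which later make somatostatin. Mature inhibitory neurons make GABA from glutamate with the enzymes encoded by Gad1 and Gad2, and subsets of them release the peptides encoded by Sst and Npy. GABAergic projection neurons of the striatum also arise under DLX1 and DLX2, so that Dlx and Gad transcripts in whole telencephalon come from more than cortical interneurons.

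Levels are given in FPKM, fragments per kilobase of transcript normalized for the number of mapped fragments, and the authors' tables give 1 pooled value for a group. From such values no spread between animals, depth, error or test could be computed, the authors' own test columns were not used, and every difference below is a difference between pooled values of 2 to 3 libraries. Log2 differences are of FPKM + 1, over genes with a mean of at least 1 FPKM in the groups compared, and a gene is said to rise or fall where it passed 1.5-fold on that scale. In bulk tissue, fewer cells of a type and less RNA per cell cannot be told apart.

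Expression at the deleted loci was examined first. The entry linc-Brn1b had 1.60, 2.498 and 0.799 FPKM in wild type at E13.5, E15.5 and P7 and was listed at 0 in the knockout at each age. The neighbouring gene Pou3f3, which encodes the POU factor BRN1, had 81.5, 82.5 and 22.7 FPKM in wild type against 36.5, 29.2 and 5.81 FPKM in the knockout. In the Peril strain the entry that overlaps the locus, linc-Atp11b-4, had 0.0109 FPKM in the libraries labelled wild type and 4.65 FPKM in those labelled knockout. An entry of the same name had 0.0127 to 0.0446 FPKM over the 6 groups of the linc-Brn1b strain, which were normalized separately. How much of the Peril strain's entry was deleted was not examined here, so it was not used to check the genotypes. Labels name the genotypes of the libraries, but each pooled value was assigned by the column order found in the linc-Brn1b strain. For the Peril strain, labelled refers to that assignment, and the opposite order would reverse every difference between its genotypes. In the linc-Brn1b strain, transcripts of 4 Y-linked genes summed to 49.2 FPKM in wild type against 0.0133 FPKM in the knockout at E13.5, and to 0.00662 and 21.0 FPKM at E15.5 and 0.0357 and 23.2 FPKM at P7. In the Peril strain Ddx3y, which is among them, was listed at 0 in wild type and had 6.86 FPKM in the libraries labelled knockout, so sex and genotype cannot be told apart in any comparison of genotypes here. From E13.5 to E15.5 the Y-linked sum fell in wild type and rose in the knockout, so sex and age cannot be told apart in that step. All 14 cortical glutamatergic markers, such as Neurod6 and Eomes, had at least 1 FPKM in the telencephalon groups. The knockout libraries labelled P7 whole brain were nearly without Hoxb5, a hindbrain and spinal cord gene, which had 3.61 FPKM in wild type against 0.0165 FPKM there, and since values are pooled no result can be given without them.

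All 9 genes are protein coding. Dlx1 (chr2:71366170-71372038 of mm9, plus strand) and Dlx2 (chr2:71381466-71384811, minus strand) lie tail to tail, 9427 bp apart. Dlx6 (chr6:6813334-6818568, plus strand) and Dlx5 (chr6:6827805-6832085, minus strand) form a second such pair, 9236 bp apart. Lhx6 (chr2:35937470-35960928), Gad1 (chr2:70391129-70440071) and Gad2 (chr2:22477725-22549394) are also on chromosome 2, Npy is at chr6:49772709-49779506 and Sst, with 1264 bp the shortest of the 9, at chr16:23889667-23890930. GENCODE places the antisense lincRNA Dlx1as over all 5869 bp of Dlx1 and the antisense transcript Dlx6os1 over all 5235 bp of Dlx6, and 1500002O10Rik overlaps 10286 bp of Gad1 on the other strand. The library kit does not mark strand and default options were used for alignment and quantification, so reads shared by Dlx1 and Dlx1as, or by Dlx6 and Dlx6os1, cannot be told apart.

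The start regions of Dlx1, Dlx2 and Sst are shown as examples of genes with their lowest value at P7 (both Dlx genes) and with their highest value there (Sst). RefSeq start regions, 250 bases before to 50 bases after a start site on GRCm38.p6, were found for 7 of the 9 genes (9 regions, 3 of them of Lhx6), and are printed on the coding strand. Capitals mark CG dinucleotides in both Dlx regions, chr2:71529195-71529494 on the plus strand and chr2:71546705-71547004 on the minus strand.
Dlx1: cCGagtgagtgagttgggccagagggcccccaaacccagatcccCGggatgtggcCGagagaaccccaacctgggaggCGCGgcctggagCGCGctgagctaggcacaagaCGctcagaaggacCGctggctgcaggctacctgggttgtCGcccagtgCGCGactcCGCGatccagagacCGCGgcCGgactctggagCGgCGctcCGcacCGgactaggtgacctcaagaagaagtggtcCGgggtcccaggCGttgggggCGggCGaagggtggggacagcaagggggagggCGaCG
Dlx2: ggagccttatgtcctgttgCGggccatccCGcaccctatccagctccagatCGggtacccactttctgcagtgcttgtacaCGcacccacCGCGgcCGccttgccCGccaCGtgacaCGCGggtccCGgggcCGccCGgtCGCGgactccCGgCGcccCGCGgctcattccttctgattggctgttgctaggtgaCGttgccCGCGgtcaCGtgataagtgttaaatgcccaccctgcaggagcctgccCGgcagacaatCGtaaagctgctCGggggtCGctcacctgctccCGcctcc
Capitals in the Sst region, chr16:23890795-23891094 on the minus strand, mark the sequence TGACGTCA, the palindromic cAMP response element for which the somatostatin promoter is known.
Sst: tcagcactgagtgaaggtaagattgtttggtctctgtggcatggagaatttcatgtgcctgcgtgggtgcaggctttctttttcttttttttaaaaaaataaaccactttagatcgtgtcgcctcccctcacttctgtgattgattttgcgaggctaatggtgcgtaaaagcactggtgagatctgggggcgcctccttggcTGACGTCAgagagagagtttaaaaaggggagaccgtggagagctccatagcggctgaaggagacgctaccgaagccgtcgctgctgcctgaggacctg

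The Dlx1 region held 27 CG dinucleotides and that of Dlx2 held 29, against 13 in that of Sst and a median of 7 over 32851 RefSeq start regions. Npy and Gad1, also highest at P7, had 24 and 21, and Gad2 had 14. The regions of Lhx6, a gene lowest at P7, had 11, 17 and 16. The count of CG thus did not divide these genes by age course. GC content was 69.3% for Dlx1, 66.3% for Dlx2 and 50.3% for Sst, with a median of 52.7% over all regions. It was 68% for Npy, 60% for Gad1, 61.3% for Gad2 and 48.7% to 63.3% over the Lhx6 regions. The sequence TGACGTCA, a choice made after the regions were read, stood between positions -48 and -41 from the Sst start site, was in none of the 8 other regions of these genes and was in 1.79% of all start regions. TAATTA, a core bound by many homeodomain proteins and the same on both strands, was in 0 of the 9 regions and in 5.29% of all regions. A match, or none, describes only the letters of these windows.

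Dlx1 was the most abundant of the 9 transcripts in the embryonic telencephalon and Sst the most abundant in both sets of whole brains. The Dlx1 entry spans chr2:71367502-71375948 in both strains, beyond the end of Dlx1 to that of Dlx1as. Its value may include reads of Dlx1as. Wild-type Dlx1 had 135 FPKM at E13.5, 137 FPKM at E15.5 and 25.1 FPKM at P7, and the knockout had 150.4, 140.4 and 30.2 FPKM. At E13.5, 3.31% of the 13390 genes with at least 1 FPKM in wild type stood above Dlx1, and at P7 23.4% of 14196 did. Dlx2 had 49.98, 29.5 and 4.70 FPKM in wild type against 43.7, 31.1 and 4.93 FPKM in the knockout. Both genes were thus lowest at P7 in either genotype, and Dlx2 was already lower at E15.5 than at E13.5.

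Dlx5 had 31.1, 26.7 and 3.67 FPKM in wild type against 27.6, 26.5 and 5.08 FPKM in the knockout. Dlx6, the least abundant member at both embryonic ages, had 12.5, 11.6 and 3.77 FPKM in wild type against 13.05, 12.1 and 5.22 FPKM in the knockout. Noncoding transcripts at the Dlx6 locus were also lowest at P7. The more abundant of 2 entries named linc-Dlx6-AS had 36.8, 37.0 and 4.90 FPKM in wild type against 44.6, 35.5 and 7.86 FPKM in the knockout, above Dlx6 itself in every group. Dlx6os1 had 11.02, 7.84 and 0.170 FPKM in wild type against 15.2, 9.05 and 0.288 FPKM in the knockout. In the linc-Brn1b table the Dlx6 entry spans chr6:6699610-6822194 together with these transcripts, and its value may include reads of theirs.

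Lhx6 had 28.2, 35.5 and 9.83 FPKM in wild type against 27.7, 34.8 and 10.6 FPKM in the knockout. It had its highest value at E15.5 in both genotypes, as Dlx1 did in wild type alone.

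Gad1, which encodes the larger of the GABA-synthesising enzymes, had 22.6, 42.5 and 66.9 FPKM in wild type against 30.4, 44.3 and 81.1 FPKM in the knockout, the highest value at P7 in both. Gad2 had 27.6, 26.3 and 27.5 FPKM in wild type, a range of little more than 1 FPKM, and 34.2, 27.4 and 40.6 FPKM in the knockout. Gad2 was therefore the only member whose wild-type value at P7 differed by less than 1.5-fold from both earlier ages.

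Sst had 70.9, 126 and 184 FPKM in wild type against 82.2, 128 and 207 FPKM in the knockout. At P7, 2.28% of wild-type genes with at least 1 FPKM stood above it. Npy had 15.4, 41.0 and 69.2 FPKM in wild type against 13.3, 31.5 and 72.6 FPKM in the knockout. Both peptides were thus lowest at E13.5 and highest at P7 in each genotype.

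In the E18.5 brain of the Peril strain the order at the top was that of the wild-type P7 brain, with Sst at 175 FPKM, Npy at 114 FPKM and Gad1 at 65.0 FPKM in wild type. Dlx1 followed with 52.9 FPKM, Gad2 with 18.47, Lhx6 with 16.5, Dlx5 with 10.5, Dlx2 with 9.35 and Dlx6 with 5.23 FPKM. Libraries labelled knockout gave the same order of all 9 genes. These values were normalized apart from those of the linc-Brn1b strain, and differences between neighbours in the order cannot be set against any spread.

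The change between ages was taken first within the telencephalon, from E13.5 to E15.5. In wild type 3 members rose, where 8.67% of 13537 genes did. Npy rose by 1.35 on the log2 scale, Gad1 by 0.88 and Sst by 0.82. A decline past 1.5-fold was seen for 1 member, Dlx2, which fell by 0.74, where 8.06% of all genes fell. Lhx6 differed by 0.32, Dlx1 by 0.02, Gad2 by -0.06, Dlx6 by -0.10 and Dlx5 by -0.21, none past the threshold. In the knockout, where 10.4% of 13567 genes rose and 7.56% fell, Npy rose by 1.18 and Sst by 0.63. Gad1 (0.53) and Dlx2 (-0.48) had the same sign there as in wild type but lay under the threshold in the knockout. Y-linked transcripts were lost over this step in wild type and gained in the knockout, so age and sex cannot be told apart in these changes. Whether the genotypes differed in them was not tested.

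From the telencephalon at E15.5 to the whole brain at P7 all 5 transcription factor genes fell in wild type, where 27.2% of 14149 genes did. On the log2 scale, Dlx5 fell by 2.57, Dlx2 by 2.42, Dlx1 by 2.40, Lhx6 by 1.75 and Dlx6 by 1.41. As ratios of FPKM, Dlx1 at P7 stood at 18.3% of its E15.5 value and Lhx6 at 27.7%. Meanwhile 2 members rose, where 23.5% of genes did, Npy by 0.74 and Gad1 by 0.64. Sst differed by 0.54 and Gad2 by 0.06, both under the threshold. The knockout gave the same 5 falls, where 27.4% of 14107 genes fell, with differences from -2.44 for Dlx2 to -1.08 for Dlx6. It gave 3 rises, where 24.5% of genes rose, by 1.18 for Npy, 0.86 for Gad1 and 0.69 for Sst, and Gad2 differed by 0.55. Tissue and age changed together in this step and cannot be told apart. Markers of midbrain, hindbrain and cerebellum summed to 49.5 FPKM at E15.5 and 109 FPKM at P7 in wild type, and to 48.8 and 46.8 FPKM in the knockout. Of these 14 markers, 3 had at least 1 FPKM in wild type at E15.5 and 11 at P7. Most of the wild-type sum at E15.5 was Zic1, with 38.1 FPKM there and 38.8 FPKM at P7. How far the added tissue moved the 9 genes was not tested in either genotype.

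Ratios of 2 transcripts within a group do not depend on the scaling of that group. Dlx1 to Dlx2 stood at 2.704, 4.66 and 5.34 in wild type, from the youngest age to the oldest, and at 3.44, 4.51 and 6.13 in the knockout. Gad1 to Gad2 moved from 0.820 to 1.61 to 2.43 in wild type and from 0.889 to 1.62 to 2.00 in the knockout, so that Gad2 was the more abundant transcript at E13.5 and Gad1 at both later ages. Dlx5 to Dlx6 was 2.48, 2.29 and 0.975 in wild type and 2.12, 2.18 and 0.974 in the knockout. Sst to Npy was 4.59, 3.08 and 2.65 in wild type and 6.16, 4.07 and 2.85 in the knockout, lower at each later age in both. Sst to Lhx6, a peptide set against a factor required for cells that make it, went from 2.51 to 3.56 to 18.7 in wild type and from 2.97 to 3.68 to 19.5 in the knockout. In the Peril strain, Gad1 to Gad2 stood at 3.52 among wild types and 3.08 in the libraries labelled knockout, above the ratios at E15.5 and at P7 in the other strain.

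**Figure D1:**
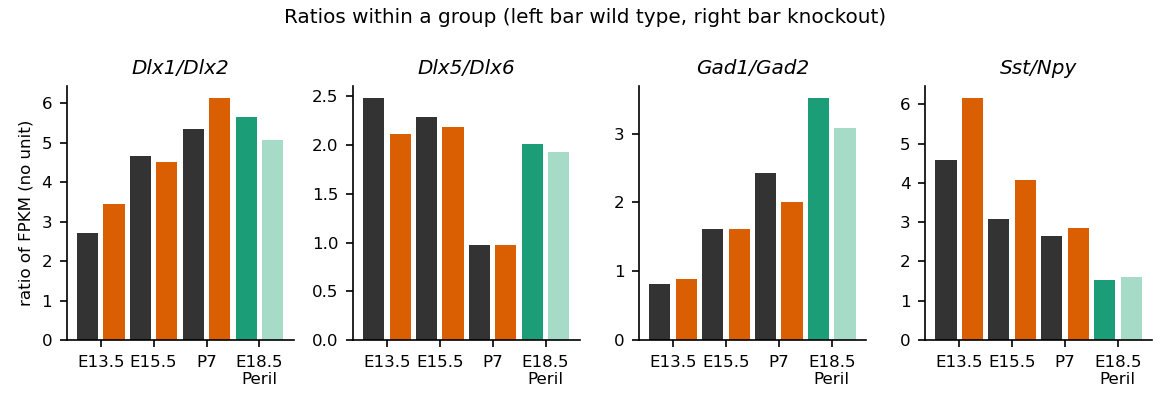
Bars give the ratio of the FPKM of 2 genes within a group (vertical axis, no unit, from 0) for each age of the linc-Brn1b strain and, last, for the Peril strain; the left bar of each pair is wild type and the right bar the knockout as labelled. Gad1 to Gad2 is below 1 at E13.5 and above 1 elsewhere, and Dlx5 to Dlx6 is 0.975 and 0.974 at P7.

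Pou3f3, a factor of cortical progenitors and upper-layer neurons, was lower in the linc-Brn1b knockout, and the question put to the 9 genes was whether the ventral lineage differed as well. At E13.5, 0 of the 9 passed 1.5-fold in either direction, where 7.06% of 13505 genes did. The largest difference was that of Gad1, with 22.6 FPKM in wild type against 30.4 FPKM in the knockout (log2 difference 0.41), and 14.45% of all genes differed by as much or more. It was followed by Gad2 (0.30), Sst (0.21) and Dlx1 (0.15), higher in the knockout, and by Npy (-0.20), Dlx2 (-0.19) and Dlx5 (-0.17), lower in the knockout. Dlx6 (0.06) and Lhx6 (-0.03) were closest to 0. With columns set to equal sums, Gad1 passed the threshold with 0.60, Dlx5 and Lhx6 turned positive, and Dlx6 turned negative when all genes were centred on their median. The median of the 9 was 0.06, as was that of all genes, and with equal sums both were 0.24. Of all genes past the threshold at that age 21.9% were higher in the knockout, and 65.5% with equal sums.

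At E15.5 the genotypes lay close together over the whole transcriptome, and 0 of the 9 genes passed 1.5-fold, where 0.473% of 13519 genes did. Of the 9, 8 differed by no more than 0.08 on the log2 scale. The exception was Npy, with 41.0 FPKM in wild type against 31.5 FPKM in the knockout (log2 difference -0.37). Only 0.976% of genes differed by as much or more at that age. Npy had also been lower in the knockout at E13.5, and was higher there at P7.

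In the P7 brain all 9 genes were higher in the knockout, where 52.2% of 14172 genes were, but 0 of them passed 1.5-fold, where 4.32% of genes did. Gad2 came closest, with 27.5 FPKM in wild type against 40.6 FPKM in the knockout (log2 difference 0.54), and 5.29% of genes differed by as much or more. With columns set to equal sums it passed the threshold with 0.60, where 500 of 14172 genes rose and 383 fell, against 295 and 317 without. Dlx6 and Dlx5 each differed by 0.38, Gad1 by 0.28, Dlx1 by 0.26 and Sst by 0.17. Lhx6 (0.10), Npy (0.07) and Dlx2 (0.06) differed least. The median of the 9 was 0.26, against 0.01 for all genes.

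Markers of several brain regions differed between genotypes in the P7 libraries. Of 14 markers of midbrain, hindbrain and cerebellum, 11 had at least 1 FPKM in wild type and 4 in the knockout, and their sum was 109 FPKM in wild type against 46.8 FPKM in the knockout. Of the 7 past the filter, 6 were lower by at least 1.5-fold in the knockout. Beside Hoxb5, the Purkinje cell gene Pcp2 was low in the knockout, with 14.7 FPKM in wild type against 1.48 FPKM. Of 8 hypothalamic and thalamic markers 1 fell, the hypothalamus and pituitary gene Pomc from 26.6 to 1.15 FPKM, and 4 rose, among them the vasopressin gene Avp from 2.98 to 11.1 FPKM. Of 12 cortical glutamatergic markers 1 rose, the vesicular glutamate transporter gene Slc17a7 from 102 to 187 FPKM, and 2 fell, Neurod1 from 25.03 to 8.37 FPKM and Pax6 from 15.3 to 5.43 FPKM, both of which cerebellar granule cells also express. Hoxb5 and Pcp2 were both low in the knockout, and whether its P7 libraries held the whole brain, as labelled, was not tested. The part of these marker differences in the higher values of the 9 genes was not tested either.

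In the Peril strain, 0 of the 9 genes passed 1.5-fold at E18.5, where 1.62% of 14402 genes did. Gad2 again had the largest difference, with 18.47 FPKM in wild-type brain and 21.4 FPKM in the libraries labelled knockout (log2 difference 0.20), and 19.3% of genes differed by as much or more. Dlx6 (0.12), Dlx5 (0.08), Dlx2 (0.07), Lhx6 (0.05) and Gad1 (0.02) were higher in the libraries labelled knockout. Npy (-0.13), Sst (-0.08) and Dlx1 (-0.08) were lower there. Markers of other brain regions also differed, with 0.611 FPKM of Hoxb5 in wild type against 6.63 FPKM in the libraries labelled knockout and 6.34 against 2.39 FPKM of Pcp2, and 9 of 11 such markers lay under the threshold. Their part in the values of the 9 genes was not tested. In the 4 comparisons of genotype, 3 of the 9 genes (Dlx6, Gad1 and Gad2) were higher in the knockout as labelled each time, as were 9.22% of the 12097 genes tested in all 4, and Dlx6 turned negative at E13.5 when centred.

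**Figure D2:**
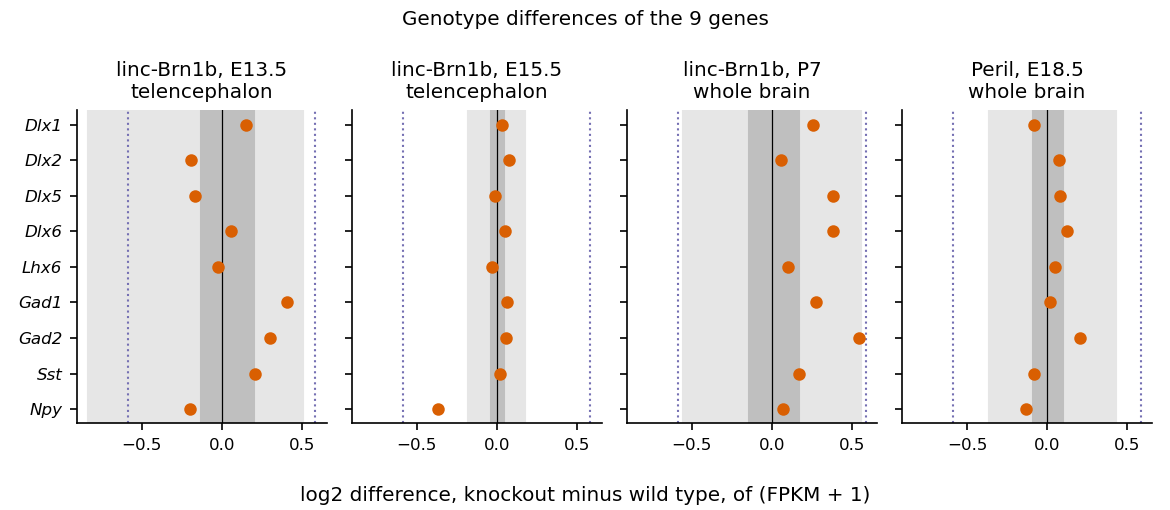
Points give the log2 difference of FPKM + 1 (horizontal axis), knockout minus wild type as labelled, for each of the 9 genes in the 4 comparisons. Dark and light grey bands hold the middle 50% and 95% of all genes, and dotted lines mark 1.5-fold. No point lies beyond a dotted line; Npy at E15.5 lies outside the light band.

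Genes that act with the 9 were followed as lists. Among 16 ventral transcription factors, such as Nkx2-1 and Gsx2 of ventral progenitors, 1 of 16 fell past 1.5-fold in the knockout at E13.5, the progenitor factor Gsx1, from 2.10 to 0.882 FPKM. None of 15 did so at E15.5, none of 14 at P7 and none of 14 in the Peril strain, and list medians were -0.02, -0.02, 0.07 and 0.03, the first turning to 0.15 with equal sums. With age in wild type, 5 of 16 fell and 1 rose from E13.5 to E15.5. Nkx2-1, the factor that turns on Lhx6, fell from 23.8 to 10.4 FPKM. From E15.5 to P7, 11 of 15 fell and 1 rose, with a median of -1.06 against -0.10 for all genes. Isl1, a factor of striatal projection neurons, went from 19.5 to 2.6997 FPKM.

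Of the genes that carry, clear or break down GABA, 6 of 6 past the filter rose from E15.5 to P7 in wild type, with a median of 1.62. The glial GABA transporter gene Slc6a11 had 6.26 FPKM at E15.5 and 123 FPKM at P7, and Abat, the GABA transaminase gene, had 21.7 and 70.5 FPKM. Between genotypes, 1 of 6 passed the threshold at E13.5, Slc6a13, a transporter gene with 2.37 FPKM in wild type against 0.7998 FPKM in the knockout, and none of 5 did at E15.5, none of 7 at P7 and none of 6 in the Peril strain. At P7, 2 of 7 were higher in the knockout and 5 lower. Slc32a1, the vesicular GABA transporter, had 32.8 FPKM in wild type against 41.9 FPKM in the knockout, while Slc6a13 had 10.2 against 7.70 FPKM. Medians of this list were 0.02, 0.02, -0.07 and 0.12 in the 4 comparisons.

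Markers of other interneuron classes included 2 of 10 that rose in the knockout at E13.5, Nos1 from 2.44 to 4.83 FPKM and Calb1 from 4.53 to 7.70 FPKM. Calb2 was lower there, with 12.8 FPKM in wild type against 8.21 FPKM in the knockout, just under the threshold (log2 difference -0.578). At E15.5 none of 10 passed the threshold. At P7, 1 of 14 did, the extracellular matrix gene Reln, which fell from 37.2 to 24.0 FPKM but lay under the threshold with equal sums. Cerebellar and hindbrain markers were also low in these knockout libraries, and their part in the Reln value was not tested. Pvalb, the marker of fast-spiking interneurons that Purkinje cells also express, had 5.74 FPKM in wild type against 3.66 FPKM in the knockout, under the threshold. Of the 14, 9 were higher in the knockout and 5 lower, and Cck had 55.1 FPKM in wild type against 76.9 FPKM, also under the threshold. None of 12 passed in the Peril strain, and medians were 0.21, 0.01, 0.11 and -0.10. From E15.5 to P7 in wild type 7 of 13 rose and 3 fell, and Vip, of a late-appearing class, went from 0.00709 to 3.53 FPKM.

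Receptors for the peptides encoded by Sst and Npy changed in level with age. Sstr2 had 27.6, 31.4 and 11.7 FPKM in wild type at E13.5, E15.5 and P7, while Sstr1 had 1.70, 2.90 and 13.8 FPKM, so that Sstr1 passed Sstr2 by P7. At P7, 6 of 6 receptor genes past the filter were higher in the knockout, where 52.2% of all genes were, with a median of 0.45. Of these, 1 passed the threshold, Sstr4, which rose from 3.30 to 7.38 FPKM, and with equal sums Npy2r passed as well. None of 3 passed at E13.5 (median 0.25), none of 4 at E15.5 (median -0.03) and none of 5 in the Peril strain (median -0.05).

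Striatal neurons share the Dlx and Gad genes with interneurons. None of 8 striatal markers passed 1.5-fold at E13.5 (median 0.01), none of 11 at E15.5 (median -0.03) and none of 12 in the Peril strain (median -0.05). At P7, 3 of 12 rose in the knockout, the dopamine receptor gene Drd1a from 4.15 to 7.62 FPKM, the adenosine receptor gene Adora2a from 6.25 to 10.6 FPKM and Gpr6 from 1.90 to 4.18 FPKM. The factor gene Ebf1 fell from 6.35 to 2.04 FPKM, and the median was 0.48. The part of the low cerebellar and hindbrain markers of the P7 knockout in these values was not tested.

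Markers of other cells differed with genotype in each comparison, and their part in the values of the 9 genes was not tested. List medians are given in the order E13.5, E15.5, P7 and Peril. Cortical glutamatergic markers had a median of 0.28 at E13.5, with 0 of 14 past the threshold (4 with equal sums, all higher), and 0.01 at E15.5, 0.15 at P7 and 0.03 in the Peril strain, with 0 of 14, 3 of 12 and 0 of 13 past it. Red blood cell genes summed to 1426 FPKM in wild type against 686 FPKM in the knockout at E13.5 and had medians of -0.73, -0.29, 0.41 and -0.59. Endothelial markers had medians of -0.38, -0.04, -0.07 and -0.28, with 1 past the threshold, Cldn5 at E13.5. Choroid plexus genes summed to 251 FPKM in wild type against 5.93 FPKM in the knockout at E15.5, with 5 of 6 past the threshold and most of the wild-type sum from Ttr, at 231 and 1.39 FPKM, and had medians of 0.11, -1.81, -0.44 and -0.34. Oligodendrocyte genes had medians of -0.12 (0.03 with equal sums), 0.08, -0.46 and 0.10, and 4 of 9 fell at P7, Mbp from 292 to 161 FPKM. Hypothalamic and thalamic markers had medians of -0.37, 0.21, 0.43 and -0.02, and those of midbrain, hindbrain and cerebellum -0.25, 0.00, -1.23 and -0.11. The 8 housekeeping genes past the filter had medians of -0.35, 0.02, -0.09 and -0.04, and Ppia fell from 1847 to 795 FPKM at E13.5, while none passed the threshold at E15.5 or in the Peril strain.

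**Figure D3:**
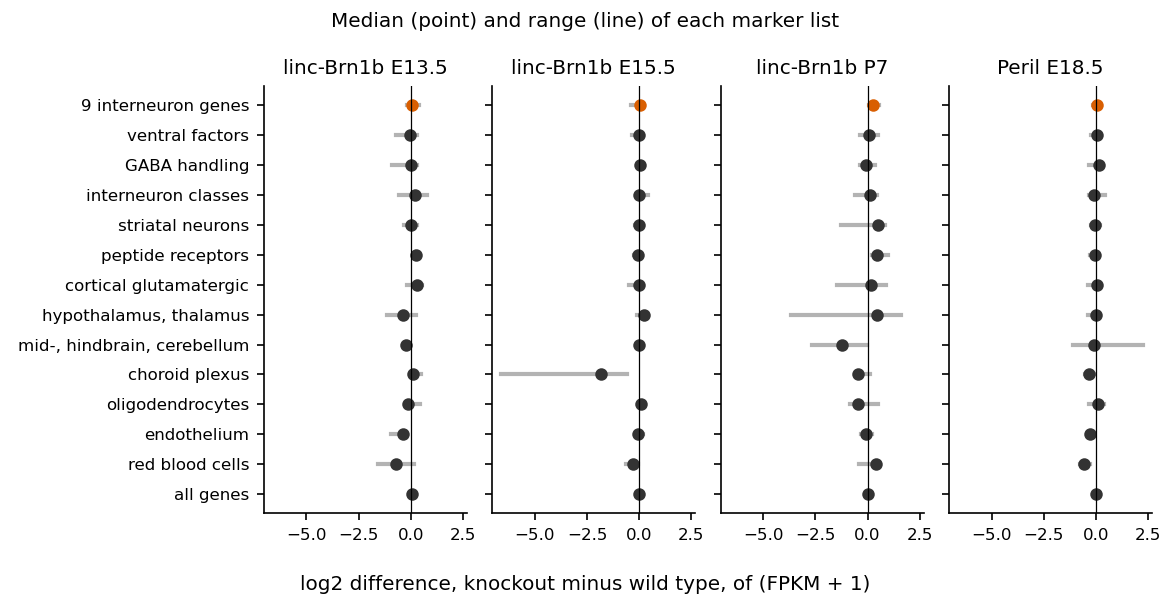
Each row is a list of genes, with the median (point) and the range (line) of the log2 difference of FPKM + 1, knockout minus wild type as labelled, over its genes with a mean of at least 1 FPKM; for all genes only the median is drawn. The medians of the 9 interneuron genes (orange) are 0.06, 0.03, 0.26 and 0.05, while choroid plexus genes at E15.5 and those of midbrain, hindbrain and cerebellum at P7 lie far to the left.

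Patterns over the 6 groups of the linc-Brn1b strain fell into separate courses. Over these 6 pooled values, which share 3 ages and 2 tissues, Pearson's r of log2(FPKM + 1) between Dlx1 and Dlx5 was 0.996, between Dlx1 and Dlx6 0.992, and between Dlx1 and either Lhx6 or Dlx2 0.980. Dlx1 with Gad1 gave -0.837 and with Sst -0.826. Gad1 and Sst had an r of 0.993, Sst and Npy 0.975, and Gad2 and Gad1 only 0.393. For a ranking by likeness, symbols of Gm, RIKEN, XLOC or linc form were left out, so linc-Dlx6-AS could not appear. Among the 9429 other genes left with a mean of at least 5 FPKM, those most like Dlx1 were D11Wsu47e, Zbtb17, Utp11l, Lemd1 and Sipa1l2 (r from 0.9992 to 0.9995), and Dlx5 ranked 98 among them. Those most like Gad1 were Snx32, Tanc2, Elfn2, Agap1 and Gas7 (r from 0.998 to 0.999). Those most like Sst were Slc1a1, Slc8a1, Sept5, Dlgap1 and Ccl27a (r from 0.998 to 0.999). In likeness to Dlx1, Dlx6 ranked 246, Lhx6 843 and Dlx2 846. In likeness to Gad1, Sst ranked 47, Npy 928 and Gad2 3493, and Npy ranked 355 in likeness to Sst. Many other genes thus had an r with Dlx1 at least as high as those of Lhx6 and Dlx2. High values of r over these 6 groups were not particular to the genes described here.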

How the data were processed

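RNA was sequenced by the authors from 21 libraries in 10 groups with the TruSeq RNA kit, as paired-end reads from mouse tissue. Per the labels and the study's methods, reads were aligned to mm9 with TopHat2, assembled with Cufflinks (version 2.0.2 in the submitters' processing notes), and the authors deposited FPKM values from Cuffdiff2, 1 per group, with replicates pooled. There are 0 columns of values per sample. The depth is unknown, and nothing in the deposited FPKM values gives counts, so no interval, floor or p-value was computed. The tables also hold the authors' fold changes, test statistics, p-values and q-values, which were not used. Tables were normalized separately, and comparisons were made within a table.

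From these values, Python 3.11.15 (numpy 2.4.6, pandas 2.3.3) computed log2 of (FPKM + 1) ratios over genes with a mean of at least 1 FPKM over both groups, keeping the row with the highest mean for a repeated symbol. A fold of at least 1.5 was the call. The call was run on a copied wild-type column with set changes past the threshold and no noise. Its outcome was fixed in advance and says nothing of error in these values. Up to 4 genes per list with the largest difference could be named, along with the 9 genes, the 5 most like Dlx1, Gad1 and Sst, and entries at their loci. Others named for context (Pou3f3, linc-Atp11b-4 and list genes outside the leading 4) were chosen after their values were seen. The members and lists were chosen with earlier results of these data known. The lists were ventral factors, GABA handling, interneuron classes, peptide receptors, striatal, cortical glutamatergic, hypothalamic, mid- and hindbrain, choroid plexus, oligodendrocyte, endothelial, red blood cell, Y-linked and housekeeping genes. Table starts count from 0, and 1 was added. Gene positions are those of GENCODE on NCBIM37 (mm9). Start regions are RefSeq's on GRCm38.p6 and were not compared with mm9 coordinates. Alternatives were pseudocounts of 0.1 and none, filters of none and 5 FPKM, folds of 1.25 and 2, equal column sums, centring on the median, and summed rows of a symbol. Values of some single genes of the lists are not reported here. The lung table of the Fendrr strain entered no comparison of the 9 genes.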

Additional observations from a re-analysis of the deposited data

How the results depend on the processing

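Depth, error and spread between animals are unknown here, so a difference of any size may lie within the spread between animals. No paired analysis was possible because each group has a single pooled value, and leave-one-out fits could not be run for the same reason. The count of the 9 genes past the fold in a comparison of genotypes was 0 under every alternative, except at the lower of the alternative folds, with 1 gene at each embryonic age and 3 at P7, and with columns set to equal sums, with 1 at E13.5 (Gad1) and 1 at P7 (Gad2). From E13.5 to E15.5 in wild type the count was 4, and 1 at a fold of 2. From E15.5 to P7 it was 7, and ran from 5 at a fold of 2 to 8 at the lower fold, with equal sums or with centring, where Sst passed. None of the 9 genes changed sign with the setting at either later age or in the Peril strain. At E13.5, Dlx5 ranged from -0.22 to 0.02, Dlx6 from -0.00 to 0.24 and Lhx6 from -0.08 to 0.16. Npy at E15.5 ranged from -0.38 to -0.37 and Gad2 at P7 from 0.53 to 0.60.

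Over all genes, the share past the threshold at E13.5 was 7.06%, and 22.5% at the lower fold, 2.05% at 2-fold, 3.8% without a filter and 10.6% with equal sums, where the share of higher genes among those called moved from 21.9% to 65.5%. At E15.5 it was 0.473%, and 0.747% at a pseudocount of 0.1, 1.29% at the lower fold; at P7 4.32%, and 18.6% and 0.974% at the lower fold and at 2-fold, 7.39% at a pseudocount of 0.1, 7.96% with none and 2.4% without a filter. In the Peril strain it was 1.62%, with 8.05% and 0.576% at the lower fold and at 2-fold, 3.35% at a pseudocount of 0.1, 3.69% with none, 2.52% with equal sums and 0.966% above 5 FPKM. Between ages it was 16.7% and 50.7%, with 38.2% and 71.6% at the lower fold, 4.14% and 27.0% at 2-fold and 8.82% and 27.6% without a filter. For the genotypes at P7 with equal sums, 500 of 14172 genes rose and 383 fell.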

Other observations

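The E14.5 lung of the Fendrr strain gave a level for the 9 genes outside the brain. Of the 9, 8 were under 1 FPKM in both genotypes, Dlx1 at 0.312 FPKM in wild type against 0.355 FPKM in the knockout, and Sst at 0.0820 FPKM in wild type and listed at 0 in the knockout. Gad1 had 0.214 and 0.0709 FPKM, Gad2 0.0846 and 0.177 FPKM, and Npy 0.564 and 0.818 FPKM. Lhx6 was the exception, with 6.67 FPKM in wild type against 5.08 FPKM in the knockout. These values were normalized apart from those of the brain, and their genotypes were assigned by the column order found in the linc-Brn1b strain.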
